A study of Homo sapiens with 18 samples.

Results

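The comparison of PC9 cells labelled Tr-BrM S100A9-inh with PC9 cells labelled Tr-BrM control rested on 6 of the 18 libraries of the study, 3 in each group, chosen by their labels, and was described over 16169 genes that passed a filter on low counts, of 60649 listed in the PC9 table. PC9 is a human lung adenocarcinoma line with an activating EGFR mutation, and BrM names its brain metastatic derivative. All cells compared here are Tr-BrM derivatives, and they differ in the treatment label alone, S100A9-inh or control. The sources used here do not give the meaning of Tr, the means by which S100A9 was inhibited, or whether a group was 1 clone or several, so the labels are kept. PC9 cells labelled BrM control (3 libraries) and the same groups of H1650, another EGFR-mutant lung adenocarcinoma line, are used only for reference. Poly-A selected RNA of cell lines was sequenced, and expression levels are CPM values, that is, counts relative to the library total after TMM normalisation. Changes are log2 fold changes, S100A9-inh minus Tr-BrM control, ± standard error (SE) with n = 3 against 3, and "rose" and "fell" are used of genes at a Benjamini-Hochberg adjusted p of 0.05 or less in edgeR's quasi-likelihood test. As no label names separate cultures, the p-values rest on the spread between libraries alone, which may be technical. In RNA of bulk cultures, fewer cells expressing a gene and less RNA per cell cannot be told apart.

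S100A9 and S100A8 are small calcium-binding proteins that pair as calprotectin, which myeloid cells and inflamed epithelia release and which signals through the receptors TLR4 and RAGE (AGER). In EGFR-mutant lung cancer, the brain is a common site of relapse under EGFR inhibitors. ALDH1A1 and ALDH1A3 oxidise retinal to retinoic acid, which acts through nuclear retinoid receptors.

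Total counts ran from 18.17 to 21.75 M per PC9 library, at which genes with few counts have wide errors. In a principal component analysis of the 9 PC9 libraries, the S100A9-inh libraries lay between the control groups on the first component (56.45% of the variance), at 0.67 to 1.4 against 50.44 to 51.22 in Tr-BrM and -52.45 to -51.49 in BrM controls, and apart from both on the second (22.44%), at -39.29 to -35.89 against 18.01 to 19.61. Replicate 1 of S100A9-inh differed more from replicates 2 and 3 (chi-square per degree of freedom of 6.51 and 5.849) than those did from each other (2.051). The same held to a smaller degree for replicate 1 of the Tr-BrM control (3.059 and 2.752 against 1.756). Both libraries were lower in genes of low GC content and higher in genes of high GC content, with median log2 ratios to their replicates 2 and 3 from -0.145 in the lowest of 4 bins of 1795 genes each to 0.115 in the highest for S100A9-inh, and from -0.069 to 0.071 for the control. The change under S100A9-inh carried the same trend, with bin medians from -0.114 to 0.097, and from -0.063 to 0.057 without S100A9-inh replicate 1. Leaving that library out gave 4247 higher and 4150 lower genes. Of the epithelial markers of this line, KRT8 stood at 12103 CPM under S100A9-inh and 11016 CPM in the Tr-BrM control, while the lung lineage factor NKX2-1 did not pass the filter.

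S100A9 was the gene that fell with the smallest p of all tested genes. Its promoter and that of S100A8 are shown because both members of the calprotectin pair fell. The 250 bases before each RefSeq start (GRCh38.p14) are printed 5′ to 3′ on the gene's strand, with the letters TATAAA in capitals where they occur. The S100A9 window is chr1:153357604-153357853 on the forward strand, and that of S100A8 is chr1:153391189-153391438 on the reverse strand.
S100A9: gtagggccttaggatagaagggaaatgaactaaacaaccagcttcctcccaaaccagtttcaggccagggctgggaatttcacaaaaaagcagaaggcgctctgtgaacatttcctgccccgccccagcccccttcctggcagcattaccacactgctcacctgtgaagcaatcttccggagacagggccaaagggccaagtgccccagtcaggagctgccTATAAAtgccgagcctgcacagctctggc
S100A8: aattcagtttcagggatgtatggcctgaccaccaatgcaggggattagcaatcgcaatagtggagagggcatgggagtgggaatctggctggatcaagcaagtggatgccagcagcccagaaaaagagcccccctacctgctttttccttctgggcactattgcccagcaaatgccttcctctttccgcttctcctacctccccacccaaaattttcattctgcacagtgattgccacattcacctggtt
TATAAA was searched on both strands and stands 29 bases before the S100A9 start. It occurs in 10.7% of all 35116 promoter windows of the same length, and a match is only a description.

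S100A9 (ENSG00000163220, GRCh38 chromosome 1, 153357854 to 153361027, forward strand) measured 33.9, 30.4 and 35.5 CPM in the S100A9-inh libraries and 739, 738 and 759 CPM in the Tr-BrM controls. The groups did not overlap, and every S100A9-inh library also lay below the BrM controls, at 119, 127 and 120 CPM. The change was -4.49 ± 0.0487 (edgeR, adjusted p = 1.14e-33), a 22.5-fold lower level. S100A8 (chromosome 1, 153390032 to 153391188, reverse strand) measured 0.968, 1.01 and 1.07 CPM under S100A9-inh against 31.3, 33.9 and 31.4 CPM in Tr-BrM control libraries and fell by 4.98 ± 0.144. Unlike S100A9, it lay above the BrM controls, at 0.211 ± 0.15 CPM (SD, n = 3). Per kilobase of exon, S100A9 stood at 1292 and S100A8 at 32.0 CPM in the Tr-BrM control, and at 57.6 and 1.01 CPM under S100A9-inh.

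The other S100 genes moved both ways and by less. Of 14 tested S100 genes, 4 rose, 4 fell and 6 did not pass the threshold, with a median change of -0.04, where 26.3% of all tested genes were higher and 26.1% lower and the median over all of them was -0.0022. S100P, an extracellular ligand of RAGE, fell by 0.67 ± 0.0577, and S100A6 fell by 0.16. S100A2, which is common in squamous epithelia, rose by 0.96. Against a threshold of 1.2-fold (glmTreat), 1 rose and 3 fell, beside 2230 risen and 1957 fallen of all 16169 tested genes. These totals are the background for the 1.2-fold counts of the lists below.

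Among 13 receptors and adaptors for S100A8/A9, 5 rose and 4 fell. Without the 2 members in chromosome stretches with shifted medians (described below), 4 of 11 rose and 3 fell. The toll-like receptor TLR4 measured 5.18, 6.13 and 6.71 CPM under S100A9-inh. The Tr-BrM controls had 0.26, 0.0973 and 0.46 CPM, and the BrM controls 19.7, 19.6 and 20.9 CPM. It was thus close to 0 in the Tr-BrM controls alone, and it rose by 4.44 ± 0.256 (edgeR, adjusted p = 3.33e-15). ALCAM, a cell adhesion molecule, rose by 0.98, and the signalling kinases IRAK4 and IRAK1, which act downstream of toll-like receptors, rose by 0.94 and 0.43. MCAM, a receptor for S100A8/A9, fell by 0.84 ± 0.0505 from 80.1 to 44.7 CPM, and the adaptor MYD88 fell by 0.38. IRAK4 and MYD88 are the 2 members in stretches with shifted medians. The stretch of IRAK4 on chromosome 12 had a median of 0.41, and that of MYD88 on chromosome 3 had a median of -0.52. The part of these shifts in the levels of IRAK4 and MYD88 was not tested. AGER, at 2.53 and 2.13 CPM, and CD14, at 3.41 and 3.64 CPM, did not pass the threshold. LY96, the partner of TLR4 in the cell surface complex, did not pass the filter on low counts.

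**Figure D1:**
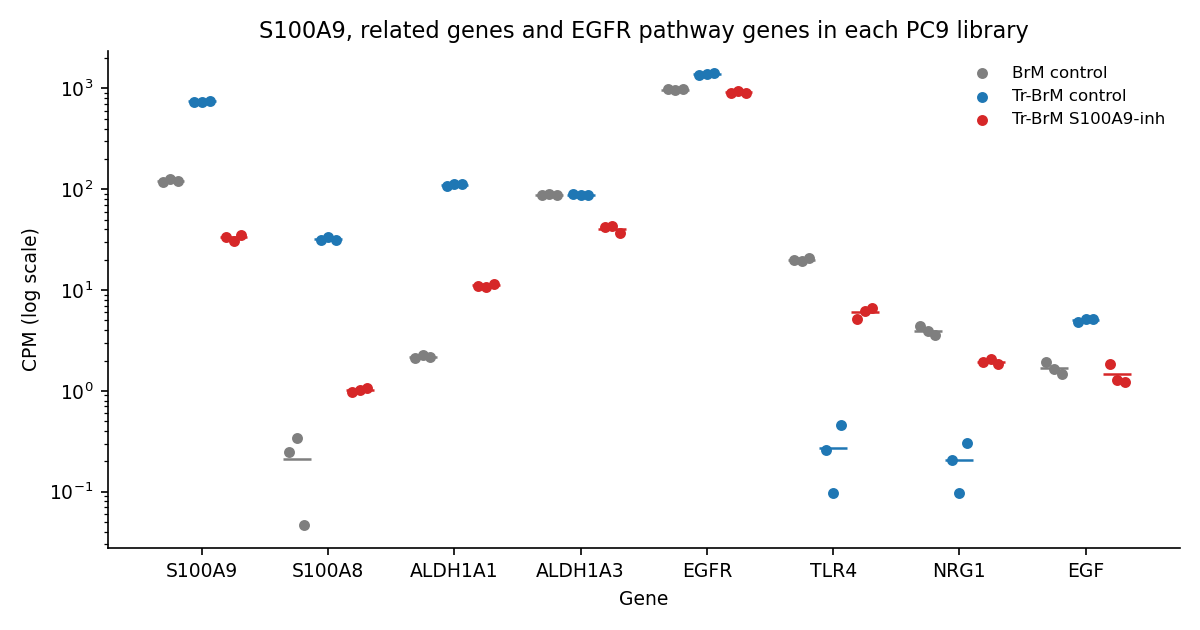
CPM on a log scale in each PC9 library (points) with the group mean (short line) for 8 genes, in the S100A9-inh, Tr-BrM and BrM groups. S100A9, S100A8, ALDH1A1, ALDH1A3, EGFR and EGF lie lower in every S100A9-inh library than in every Tr-BrM control, and TLR4 and NRG1 lie higher.

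Of the aldehyde dehydrogenases, 2 of 18 tested rose, 9 fell and 7 did not pass, with a median of -0.22, and 4 of the falls passed 1.2-fold. ALDH1A1 (chromosome 9, 72900662 to 73080442, reverse strand) measured 11, 10.8 and 11.6 CPM under S100A9-inh and 107, 113 and 113 CPM in the Tr-BrM controls, a fall of 3.32 ± 0.0648 (edgeR, adjusted p = 3.81e-27). Its level stayed above the 2.19 ± 0.088 CPM (SD, n = 3) of the BrM controls. ALDH1A3 (chromosome 15, 100877714 to 100916626, forward strand) measured 42.4, 42.8 and 37.1 CPM against 90.2, 86.9 and 87.1 CPM and fell by 1.11 ± 0.0545. In contrast to ALDH1A1, it lay below both control groups, since the BrM controls stood at 88.5 ± 1.6 CPM (SD, n = 3). ALDH1A2 fell by 1.52 at a level under 2 CPM. ALDH3A1, a detoxifying dehydrogenase, rose by 1.24.

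Genes that handle retinoids moved both ways. Of 16 transport and metabolism genes, 4 rose and 7 fell. RDH10, which makes retinal from retinol, fell by 0.84, and STRA6, the retinol importer, fell by 0.60, while RDH11 and RETSAT rose by 0.82 and 0.57. Among 15 receptors and targets, 8 rose and 3 fell. Without the 3 of them in chromosome stretches with shifted medians (described below), RARG and NR2F1 among them, 6 of 12 rose and 3 fell. The receptor genes RARG and RXRA rose by 0.87 and 0.59 and the orphan receptor NR2F1 by 2.14, while NR2F2 rose from 46.2 to 92.5 CPM. RARB, whose gene is a classical retinoic acid target, was at 0.335 and 0.409 CPM and did not pass.

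EGFR (chromosome 7, 55019021 to 55211628, forward strand) measured 902, 951 and 900 CPM under S100A9-inh and 1374, 1394 and 1413 CPM in the Tr-BrM controls. The groups did not overlap, and the gene fell by 0.60 ± 0.032, to a mean of 918 CPM against 975 CPM in the BrM controls. Around the receptor, of 15 genes of the family and its ligands, 7 rose and 4 fell. Without the 2 of them in chromosome stretches with shifted medians (described below), ERBB3 among them, 6 of 13 rose and 4 fell. The ligand EGF fell by 1.78 ± 0.199 and TGFA by 0.64, and the feedback inhibitor ERRFI1 fell by 0.66. ERBB3 rose by 0.64, ERBB2 by 0.32, and NRG1, which encodes the ERBB3 ligand neuregulin, rose by 3.23 ± 0.356 from 0.208, 0.0973 and 0.307 CPM to 1.94, 2.07 and 1.83 CPM. Ligands of the same receptor family therefore moved in opposite directions.

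Of 15 other receptor kinases, 7 rose and 3 fell. AXL, a receptor kinase often raised in EGFR inhibitor resistance, measured 27.1, 25.5 and 23.7 CPM against 9.06, 7.74 and 8.39 CPM and rose by 1.60 ± 0.0872. IGF1R rose by 0.85 and MERTK by 1.01, and MET, at 130 against 119 CPM, rose by 0.13. FGFR3 fell by 0.84. Among 19 genes of MAPK output and feedback, 4 rose and 9 fell. The largest fall there was that of the ephrin receptor EPHA4 (1.95 ± 0.0512), and the cell cycle and growth genes CCND1, FOSL1 and MYC fell by 0.69, 0.56 and 0.48. DUSP6 and PHLDA1, which are also induced by MAPK signalling, rose by 0.47 and 0.87. Both lie in the shifted stretch of chromosome 12 (described below), whose tested genes had a median of 0.41. The part of that shift in the levels of DUSP6 and PHLDA1 was not tested. Without the 1 list member in a window counted as shifted, 3 of 18 rose and 9 fell, with a median of -0.20.

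Over all 16169 tested genes, 4260 rose (26.3%) and 4227 fell (26.1%) under S100A9-inh, and 52.5% were called either way. The spread between libraries was small (common biological coefficient of variation of 0.0433), and 2563 of the called genes changed by less than 0.3 on the log2 scale. With an absolute change of at least 1, 796 genes rose (4.92%) and 467 fell (2.89%), 1263 in all (7.81%), and the median absolute change was 0.29. Replicates of the groups did not overlap for 9102 genes (56.3%). Against a change of 1.2-fold (glmTreat), 2230 rose and 1957 fell, and with a stricter filter on low counts 393 rose and 253 fell by at least 1.

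The largest rises began with genes that were nearly silent in the Tr-BrM control. EPB41L2, a membrane skeleton protein, measured 66.1, 69.9 and 72.6 CPM against 0.26, 0.389 and 0.409 CPM and rose by 7.59 ± 0.119, with 148, 152 and 156 CPM in the BrM controls. CDYL2, a chromodomain protein, rose by 6.39 ± 0.241 to 9.53, 11.2 and 10.5 CPM, below the 31.2 to 35.5 CPM of the BrM controls. Both genes were high in BrM, low in Tr-BrM and intermediate under S100A9-inh. The actin bundling protein LCP1 rose by 3.71 ± 0.151 and the branched-chain aminotransferase BCAT1 by 3.46 ± 0.17, to means of 10.4 and 10.9 CPM, where the BrM controls had 103 CPM each. Dystrophin (DMD) and the adhesion molecule SDK1 rose by 4.35 and 3.32, to means of 5.26 and 15.4 CPM with 4.65 CPM for DMD and 11.7 to 12.3 CPM for SDK1 in the BrM controls. PTGS2, the inducible prostaglandin synthase, rose by 3.08 ± 0.18 to 6.73, 7.19 and 6.23 CPM.

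Other rises started from no counts at all. CDH2, which encodes N-cadherin, had 0 counts in the 3 Tr-BrM control libraries and 214 counts under S100A9-inh, at least 69.4-fold higher when the zero is set to a floor of 3 counts for the whole group. It reached 3.53 ± 0.501 CPM (SD, n = 3), while the BrM controls had 40.1 ± 1.73 CPM. XYLT1, a xylosyltransferase of proteoglycan synthesis, was at least 72.3-fold higher, and the endothelial cell-specific molecule ESM1 was at least 16.5-fold higher. FGD5, with 1 count in the Tr-BrM control, was higher by a ratio of 165 (95% counting interval, 29.3 to 6570). Such intervals and floors cover counting error only.

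The largest falls included several keratins. KRT5, a basal cell keratin, measured 0.871, 0.369 and 0.698 CPM against 34.8, 32 and 36.6 CPM and fell by 5.74 ± 0.158. SLC34A2, the phosphate transporter of alveolar type II cells, fell by 6.32 ± 0.258 from 12.5, 13.3 and 11 CPM to 0.145, 0.0922 and 0.215 CPM, with 0 CPM in all BrM controls. KRT4, KRT17 and KRT23 fell by 4.46, 3.61 and 3.35. The matrix proteoglycan FMOD fell by 4.11 ± 0.28, the gastric mucin MUC6 by 3.90 ± 0.163 and the pregnancy glycoprotein PSG5 by 3.08. CES1, a carboxylesterase, fell by 2.45 ± 0.0385 from 1023, 993 and 999.6 CPM to 192, 178 and 182 CPM, far above the 0.24 CPM of the BrM controls. For each of these genes the replicates of the groups did not overlap.

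**Figure D2:**
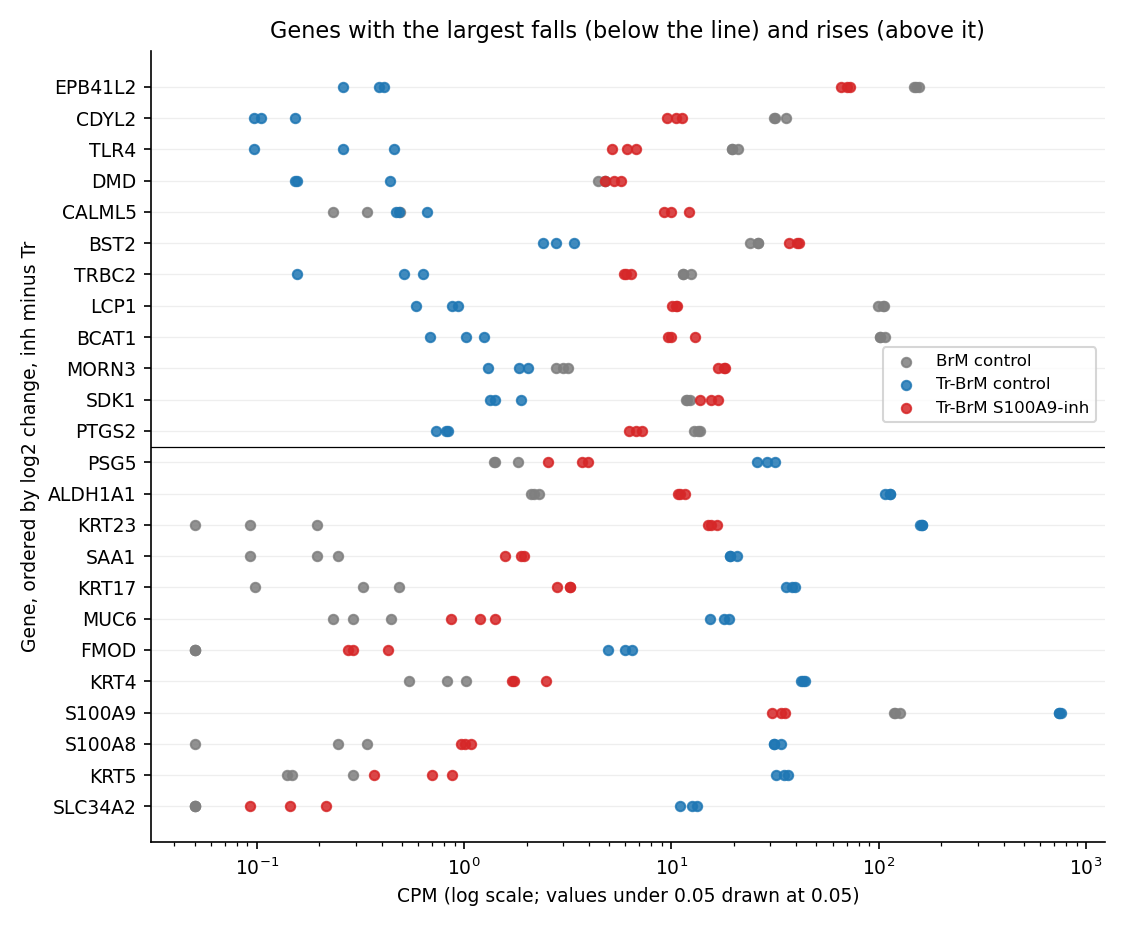
CPM on a log scale in each library for the 12 genes with the largest rises (above the line) and the 12 with the largest falls (below it), among called genes whose higher group reached 5 CPM. Blue Tr-BrM controls and red S100A9-inh libraries do not overlap in any row, and EPB41L2, CDYL2, LCP1 and BCAT1 lie highest in grey BrM controls.

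Genes of cholesterol biosynthesis, which the transcription factor SREBF2 switches on when membrane sterol is low, had the highest median of all lists with at least 12 tested members. Of 25 tested, 22 rose, 0 fell and 3 did not pass, with a median of 0.83. INSIG1, which holds the SREBP complex in the endoplasmic reticulum, measured 78, 88.2 and 79.8 CPM against 20.9, 23 and 21 CPM and rose by 1.92 ± 0.0605 (edgeR, adjusted p = 1.09e-21), with no overlap between the groups. Enzymes from the start to the end of the pathway were among the risen genes. The synthase HMGCS1 rose by 0.47, the kinase MVK by 1.58, the isomerase IDI1 by 1.30, the farnesyl transferase FDFT1 by 0.92, the epoxidase SQLE by 0.89 and the cyclase LSS by 1.63. Members that did not pass included PMVK and TM7SF2, with changes of -0.02 and 0.16.

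The BrM controls stood near the S100A9-inh levels for these genes, at 106 CPM for INSIG1 and 134 CPM for LSS. Since the comparisons of Tr-BrM with BrM and with S100A9-inh share the Tr-BrM libraries, these values are set side by side only. Without INSIG1 and MVK, the 2 genes in chromosome stretches with shifted medians (described below), 20 of 23 rose and 0 fell. The sterol element, searched as TCACNCCAC on both strands, was in 1 of 18 cholesterol gene promoters found in RefSeq (5.56%), where 0.883% of all promoter windows hold it.

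Fatty acid genes rose in larger part. Of 24 tested, 18 rose and 4 fell, with a median of 0.44, and 14 rose past 1.2-fold. Fatty acid synthase FASN measured 2345, 2164 and 2056 CPM against 1177, 1064 and 1084 CPM and rose by 0.98 ± 0.0395. The desaturase SCD rose by 1.10 ± 0.0316, their regulator SREBF1 by 1.01 ± 0.043, and the acyl-CoA synthetases ACSL1 and ACSL5 by 1.12 and 2.66. The lipid droplet coat gene PLIN2 rose by 2.63 ± 0.319 to 2.95, 2.9 and 2.69 CPM, with 0.508 CPM in the BrM controls. SCD5, the other desaturase, fell from 76.5 to 38.2 CPM, and ELOVL3 fell by 1.12, so the members moved both ways.

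Interferon-stimulated genes are switched on by a complex that holds STAT2 and IRF9 and binds the interferon-stimulated response element in their promoters. The promoters of BST2, IFIT1, IFI44 and ISG15 are shown because they hold that element and these genes rose. Windows are the 250 bases before the RefSeq start (GRCh38.p14), printed 5′ to 3′ on the gene's strand, with matches on either strand in capitals to GAAA, then NN for any bases, then GAAA. They lie at chr19:17405631-17405880 (reverse) for BST2, chr10:89392373-89392622 (forward) for IFIT1, chr1:78649539-78649788 (forward) for IFI44 and chr1:1013247-1013496 (forward) for ISG15.
BST2: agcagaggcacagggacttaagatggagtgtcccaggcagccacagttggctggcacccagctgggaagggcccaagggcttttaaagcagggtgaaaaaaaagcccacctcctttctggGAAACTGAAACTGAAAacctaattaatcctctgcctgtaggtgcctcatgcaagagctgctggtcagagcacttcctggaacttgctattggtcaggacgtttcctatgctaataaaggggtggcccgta
IFIT1: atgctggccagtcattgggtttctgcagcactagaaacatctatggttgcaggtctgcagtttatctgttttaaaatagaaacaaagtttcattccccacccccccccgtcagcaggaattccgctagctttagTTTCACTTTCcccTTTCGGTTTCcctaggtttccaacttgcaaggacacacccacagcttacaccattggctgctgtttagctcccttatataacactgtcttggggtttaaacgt
IFI44: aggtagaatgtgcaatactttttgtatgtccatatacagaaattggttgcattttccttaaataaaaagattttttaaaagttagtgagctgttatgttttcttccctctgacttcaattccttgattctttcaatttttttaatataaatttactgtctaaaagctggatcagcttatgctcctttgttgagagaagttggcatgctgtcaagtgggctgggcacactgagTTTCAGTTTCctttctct
ISG15: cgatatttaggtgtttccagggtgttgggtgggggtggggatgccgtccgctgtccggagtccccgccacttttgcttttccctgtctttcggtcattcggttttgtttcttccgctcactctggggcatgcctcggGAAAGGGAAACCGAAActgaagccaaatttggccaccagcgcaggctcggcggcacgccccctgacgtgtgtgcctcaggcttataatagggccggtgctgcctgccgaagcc
The element was in 16 of 26 promoters of tested interferon genes found in RefSeq (61.5%), in 6 of 15 promoters of antigen presentation genes (40%) and in 3.02% of all promoter windows. Matches in BST2 and ISG15 overlap each other. Genes with a match included members that did not pass, such as IFIH1 and DDX60. Members without a match, such as PARP9 and STAT2, rose too.

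Of 32 tested genes of the type I interferon response, 21 rose, 3 fell and 8 did not pass, with a median of 0.61. BST2, a surface protein that tethers budding viruses (chromosome 19, 17402939 to 17405648, reverse strand), measured 40.6, 37 and 41.2 CPM under S100A9-inh. The Tr-BrM controls had 3.38, 2.77 and 2.4 CPM, and the BrM controls 26.2, 26.1 and 23.9 CPM. It was lowest in the Tr-BrM controls and rose by 3.79 ± 0.105 (edgeR, adjusted p = 4.39e-23). The other strong rises were at low levels. IFIT1, a sensor of foreign RNA caps, rose by 3.13 ± 0.411 to 1.94, 2.49 and 2.85 CPM, and OASL rose by 2.86 ± 0.327 to 2.56, 2.86 and 2.79 CPM. IFI44 had 45 counts against 3, a ratio of 14.6 with a 95% counting interval from 4.68 to 73.4. At higher levels, the antiviral synthetase OAS3 rose by 0.75 from 48.8 to 82.2 CPM, PARP9 by 0.82 and STAT2 by 0.82.

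Not every interferon gene moved that way. ISG15, a ubiquitin-like modifier, measured 20.4, 15.4 and 15.6 CPM against 9.95, 10.1 and 7.87 CPM and rose by 0.88 ± 0.112. MX1, USP18, IFI6 and DDX60, which are commonly used as interferon indicators, did not pass, at changes of -0.24, 0.04, 0.37 and -0.05. IFITM2, whose near-identical neighbours can share its reads, fell by 1.77 and IFIT5 by 0.65. Of the 32 tested members, 5, among them OASL, OAS3 and STAT2 on chromosome 12, lay in chromosome stretches with shifted medians (described below). Without these 5, 16 of 27 rose, where 21 of 32 rose with them, and 3 fell, with a median of 0.41. Against 1.2-fold, 19 rose and 2 fell.

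Antigen presentation by MHC class I rose alongside. Of 19 tested genes, 15 rose, 0 fell and 4 did not pass, with a median of 0.32. NLRC5, the transcriptional activator of MHC class I, measured 53.5, 46.6 and 47.2 CPM against 22.2, 23.1 and 23.8 CPM and rose by 1.09 ± 0.0681. The trimming peptidase ERAP2 rose by 1.06, the immunoproteasome subunits PSMB8 and PSMB9 by 0.61 and 0.49, the transporters TAP1 and TAP2 by 0.41 each, and B2M by 0.32. HLA-B and HLA-C, whose copies share reads, rose by 0.46 and 0.11. Most of these changes were small, and 9 passed 1.2-fold.

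Inflammatory genes that NF-kappaB controls did not rise with the interferon genes. Of 24 tested, 7 rose and 12 fell, with a median of -0.28, and 4 rose and 9 fell past 1.2-fold. The neutrophil chemokine CXCL8 measured 3, 3.41 and 2.63 CPM against 7.24, 9.68 and 10.4 CPM and fell by 1.59 ± 0.16, and CXCL1 fell by 1.68. Lipocalin LCN2, an iron-binding acute phase protein, fell by 0.73 ± 0.0421 from 230 to 139 CPM, and ICAM1, LIF and RELB fell by 0.62, 0.53 and 0.49. PTGS2, IL6 and the inhibitor NFKBIA rose instead. IL6 measured 2.03, 3.18 and 3.28 CPM against 0.26, 0.341 and 0.665 CPM and rose by 2.73 ± 0.362.

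Acute phase and complement genes were lower. Of 14 tested, 2 rose and 9 fell, with a median of -0.68. SAA1, a serum amyloid that shares reads with SAA2, measured 1.89, 1.57 and 1.93 CPM against 19.1, 19.2 and 20.8 CPM and fell by 3.45 ± 0.137. The complement proteases C1S, C1R and CFD fell by 1.46, 1.04 and 0.93, and the complement inhibitor CD55 by 0.85. C3, the central complement component, fell by 0.50.

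**Figure D3:**
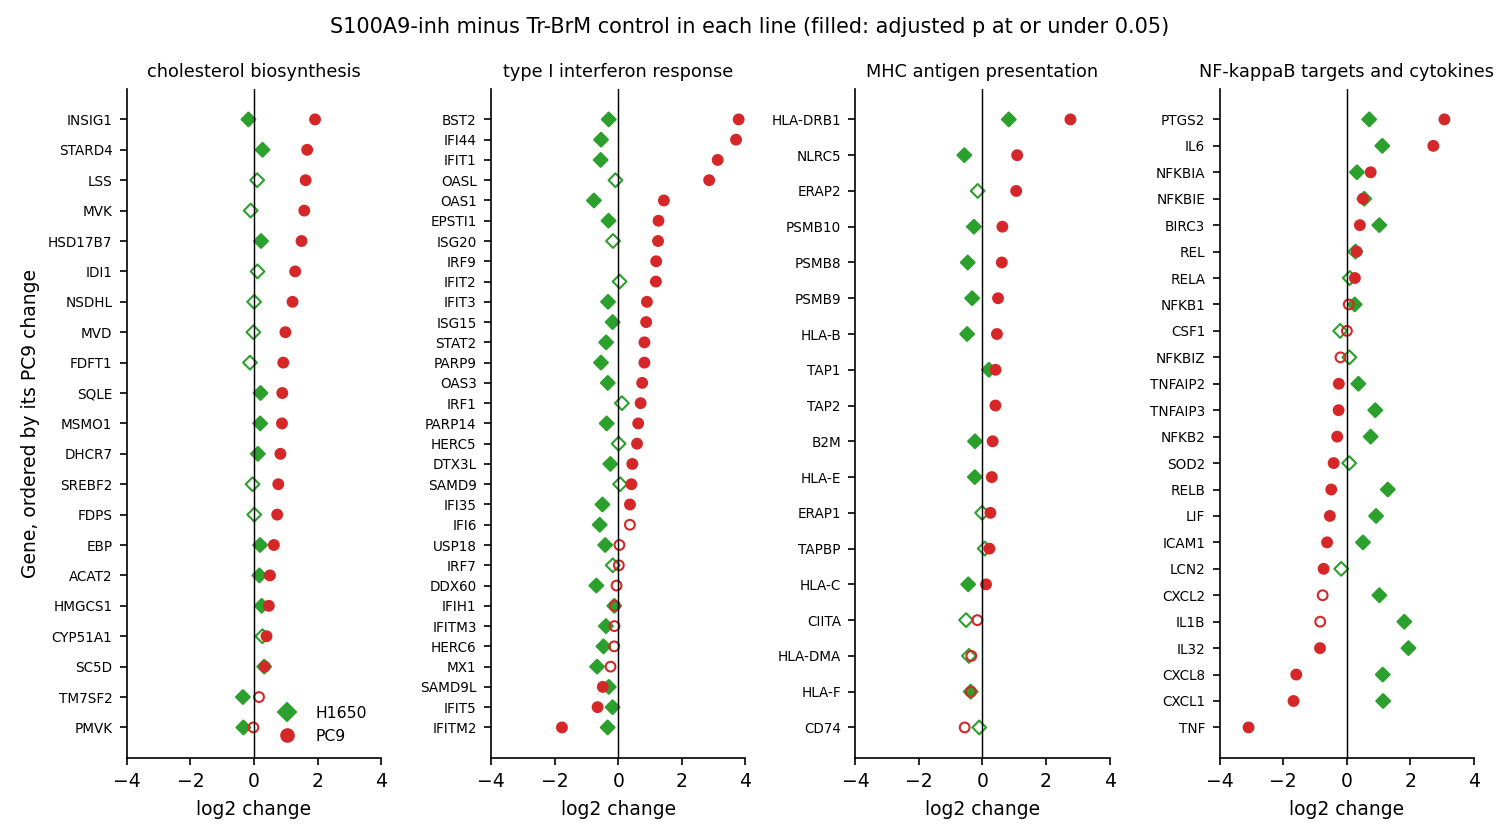
Log2 change (S100A9-inh minus Tr-BrM control) of tested members of 4 gene lists, without genes not reported here, in PC9 (red circles) and H1650 (green diamonds), filled where the adjusted p is 0.05 or less. In PC9 most cholesterol, interferon and MHC members lie right of 0, while in H1650 most interferon members lie left of 0 and most NF-kappaB members right of it.

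Squamous and basal lineage genes had the lowest median of the lists with at least 12 tested members. Of 13 tested, 2 rose and 9 fell, with a median of -1.27. KRT6A, whose reads can be split with its copies KRT6B and KRT6C, measured 14.1, 10.8 and 12.6 CPM against 74, 75.3 and 80.9 CPM and fell by 2.62 ± 0.0793. KRT6B fell by 3.04, KRT16 by 1.27, KRT15 by 0.84 and the serpin SERPINB5 by 1.54. The basal master regulator TP63 was at 1.9 and 1.77 CPM and did not pass, and BNC1 rose by 1.90. The keratins of simple epithelia had smaller values, with KRT8 at 0.14 and KRT19 at 0.30, and KRT7 and KRT18 did not pass. Of 8 tested simple keratins, 6 lay in chromosome stretches with shifted medians (described below). KRT7, KRT8 and KRT18 are among these, in a 10 Mb window of chromosome 12 with a median of 0.47. Without the squamous and basal members in such stretches, 6 of 10 fell and 2 rose, with a median of -0.47. The members left out include KRT5 and KRT6A on chromosome 12, which fell by 5.74 and 2.62. Their stretch was shifted the other way, with a median of 0.41 over all its tested genes. The part of that shift in the levels of these keratins was not tested.

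Secreted and surface glycoproteins of glandular epithelia were also lower. Of 8 tested mucins and mesothelin, 5 fell and 2 rose. Mesothelin (MSLN) measured 44.3, 43.7 and 43.6 CPM against 132, 125 and 128 CPM and fell by 1.54 ± 0.0518. MUC5B, a gel-forming airway mucin, fell by 2.03, MUC16 by 1.11 and MUC4 by 0.96. MUC1 went the other way and rose by 1.84 ± 0.118 from 4.63, 5.64 and 5.47 CPM to 21.5, 17.7 and 17.3 CPM. Of 13 alveolar and secretory genes, 3 rose and 7 fell, with CEACAM6 at -0.86 and the surfactant lipid transporter ABCA3 at 0.50.

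Mesenchymal genes and matrix proteins split by gene. Of 22 tested mesenchymal genes, 10 rose and 6 fell. Tenascin C (TNC), a matrix protein, measured 85.6, 79 and 83.5 CPM against 12.6, 15.7 and 17.3 CPM and rose by 2.44 ± 0.0701, and the lysyl oxidase LOXL2 rose by 1.37 ± 0.0622. Vimentin (VIM) rose by 1.98 to 4.32 CPM and SNAI2 by 1.41. Fibronectin (FN1), another mesenchymal matrix gene, fell instead, by 0.97 ± 0.0343, from 452, 440 and 459 CPM to 245, 224 and 220 CPM, where the BrM controls had 12023, 11929 and 12023 CPM. The basement membrane collagens COL4A1 and COL4A2 fell by 1.09 and 1.62 and COL12A1 by 1.37, while COL6A1 and COL6A2 rose by 0.72 and 0.51. The hyaluronan receptor CD44 fell by 0.81 ± 0.0295, and moesin (MSN), which ties CD44 to actin, fell by 1.23 ± 0.0309 from 2605 to 1110 CPM.

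Integrin and laminin subunits moved apart in the same way. The laminin chains LAMA3 and LAMA4 changed by 1.37 ± 0.0545 and -2.38, and the fibronectin receptor subunit ITGA5 rose by 1.46 while ITGB8 and ITGB5 fell by 1.47 and 0.81. In all, 11 of 23 tested rose and 5 fell, of which 5 and 3 passed 1.2-fold.

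Among 27 genes of the TGF-beta response, 7 rose and 15 fell, of which 5 and 9 passed 1.2-fold. The activin subunit INHBA measured 85.5, 92 and 90 CPM against 216, 212 and 217 CPM and fell by 1.27 ± 0.0423. BMP2, BMP4 and BMP7, ligands of the same family, fell by 2.06, 1.34 and 1.29, and the receptor TGFBR2 by 1.23. BMP2 lies in the shifted stretch of chromosome 20 and TGFBR2 in that of chromosome 3 (described below). Without these 2 genes, 7 of 25 rose and 13 fell. TGFBI and ID1 rose by 1.31 and 0.84, as did the ligand TGFB1 by 0.65. Among 25 Hippo pathway genes and YAP/TEAD targets, 10 rose and 14 fell (6 and 8 past 1.2-fold), with F3 (tissue factor) at -1.30, ANKRD1 at -1.47 and CCN1 at -0.61. AXL and DLC1, also in that list, rose by 1.60 and 1.82. The Wnt ligands WNT6 and WNT5A fell by 2.29 and 2.10, and WNT5B rose by 1.19.

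Proliferation genes were lower by small amounts. Of 52 tested genes of DNA replication and G1/S, 36 fell and 6 rose, with a median of -0.24, but only 13 fell and 1 rose past 1.2-fold. The replication clamp PCNA measured 307, 294 and 287 CPM against 444, 446 and 449 CPM and fell by 0.59 ± 0.0358. It lies in the shifted stretch of chromosome 20 (described below), whose tested genes had a median of -0.55. The part of that shift in the level of PCNA was not tested. The origin licensing factor CDC6 and the helicase cofactor CDC45 fell by 0.64 and 0.68. Without the 6 replication genes in chromosome stretches with shifted medians, 33 of 46 fell and 4 rose, with a median of -0.24. Of 39 genes of G2/M and mitosis, 21 fell and 5 rose, of which 3 and 1 passed 1.2-fold. Among all 16169 tested genes, 1957 fell and 2230 rose past 1.2-fold. The kinesin KIF23 and the centromere protein CENPF fell by 0.41 and 0.42, and the phosphatase CDC25C rose by 0.69. Of 23 p53 targets, 9 rose and 6 fell. The cell cycle inhibitor CDKN1A measured 40.8, 36.6 and 37.3 CPM against 22.4, 19.1 and 20.2 CPM and rose by 0.90 ± 0.068, with 84.6 CPM in the BrM controls. In the BCL2 family, 9 of 15 rose and 3 fell, with the pro-apoptotic BMF at 1.27 and the anti-apoptotic BCL2L1 at -0.37.

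Genes of hypoxia and glycolysis were higher, with 24 of 35 tested risen and 4 fallen and a median of 0.25. NDRG1, a hypoxia-induced gene, measured 141, 132 and 132 CPM against 37.5, 37.2 and 38.9 CPM and rose by 1.83 ± 0.0516. Lactate dehydrogenase LDHA rose by 0.57 ± 0.0286, the phosphofructokinase PFKP by 0.74 and the regulator PFKFB4 by 1.81. The hypoxia marker CA12 fell by 1.26, CA9 did not pass, and 14 of the 24 rises passed 1.2-fold.

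Of 31 antioxidant and aldo-keto reductase genes, 16 rose and 11 fell. AKR1C2 measured 1977, 2008 and 2053 CPM against 598, 620 and 610 CPM and rose by 1.72 ± 0.032, while AKR1C1 fell by 0.87; as these reductases are near-identical, reads can be split between them. HMOX1, which degrades heme, rose by 1.86, and the ferritin chain FTH1 by 0.65. The stress gene CHAC1, a target of ATF4, rose by 2.02 ± 0.223 and ATF4 itself by 0.38. The chaperones HSP90AA1 and HSP90AB1 fell by 0.48 and 0.42, and HSPA1A and HSPA1B, which share reads, rose by 0.43 and 0.89. Among amino acid genes, the transporters SLC6A14 and SLC1A3 fell by 2.02 and 1.52.

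Protein-coding transcripts of the mitochondrial genome were lower. Of 13 such genes, 13 fell, with a median of -0.32, and 7 passed 1.2-fold, while the ribosomal RNA genes MT-RNR1 and MT-RNR2 rose by 0.24 and 0.18. MT-ND2, a subunit of complex I, fell by 0.63 and MT-ATP6, of the ATP synthase, by 0.54. Nuclear genes of oxidative phosphorylation did not share this, with 29 of 78 risen, 7 fallen and a median of 0.09, and with 5 and 1 past 1.2-fold. Of 80 cytosolic ribosomal protein genes, 54 rose and 12 fell, with a median of 0.17 and 13 rises past 1.2-fold. Past that threshold, 2230 of all 16169 tested genes rose and 1957 fell. RPL13A rose by 0.68 ± 0.0308 and RPL10 by 0.68, and reads of pseudogenes can be split with these genes.

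**Figure D4:**
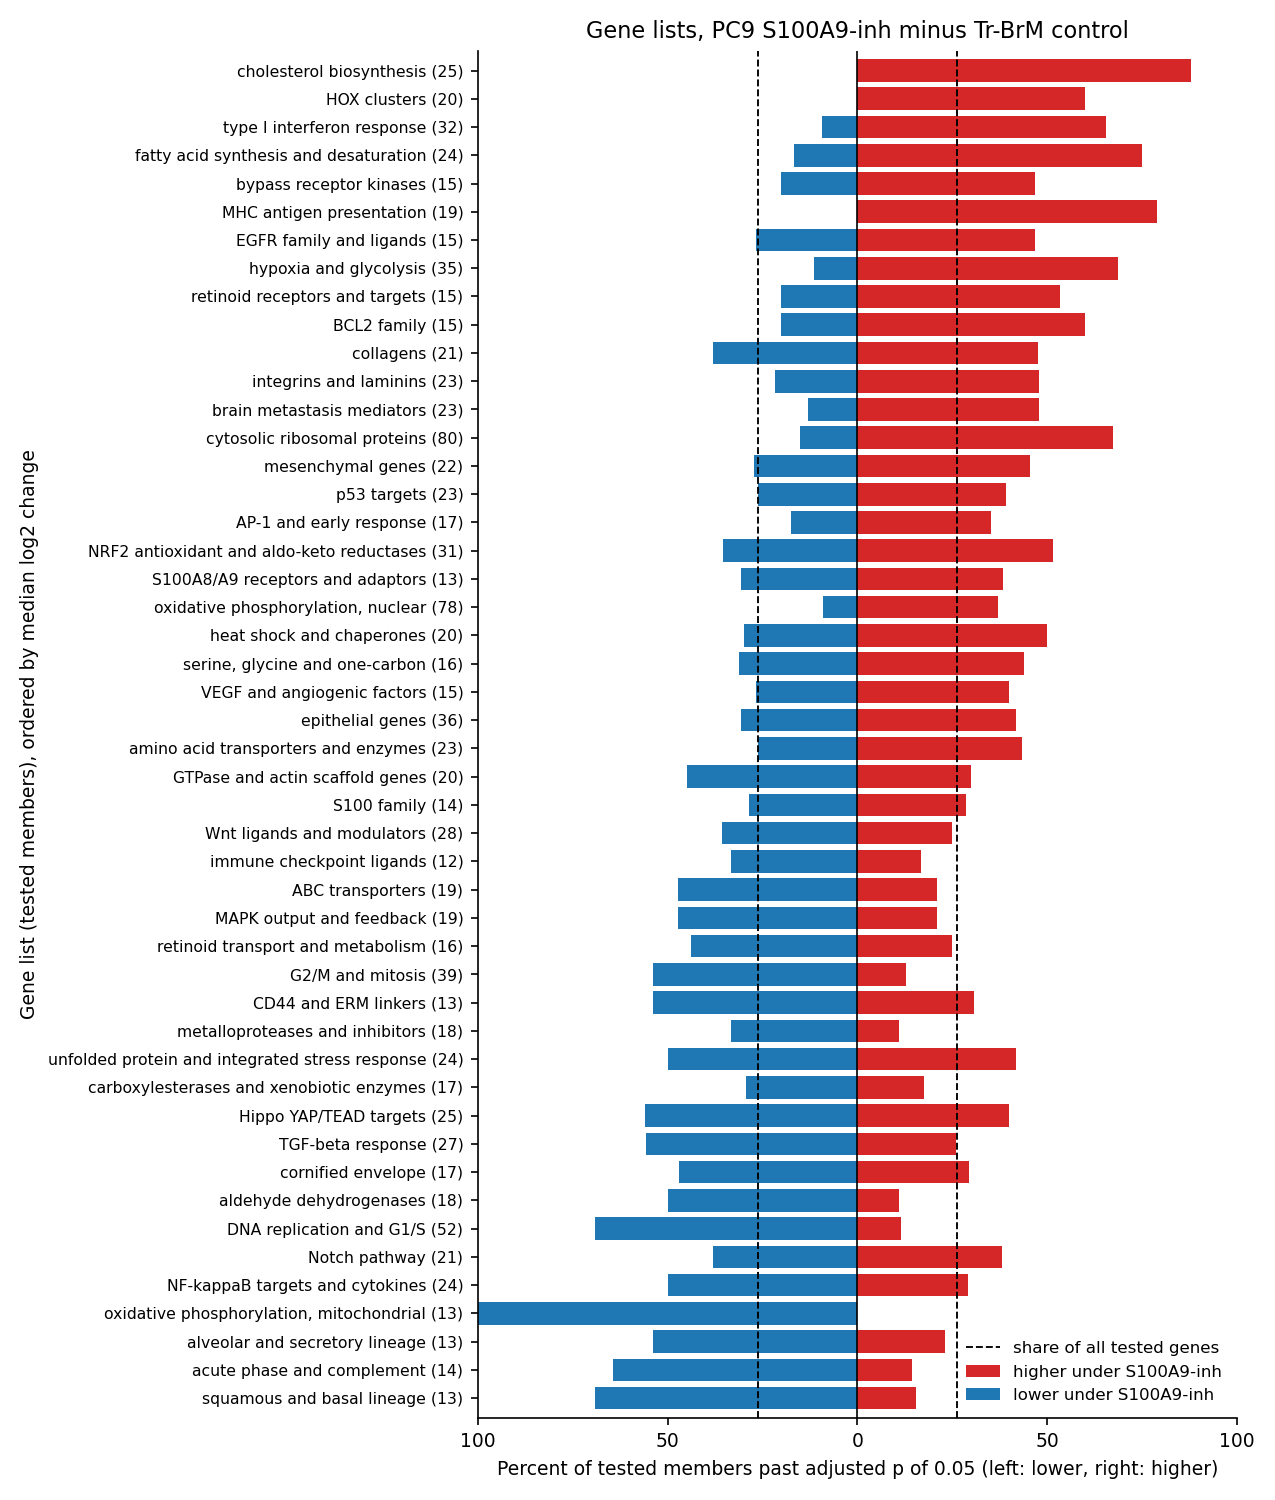
Percent of tested members that were higher (right) or lower (left) under S100A9-inh in each gene list with at least 12 tested members, ordered by median change, with the shares of all tested genes (26.3% higher, 26.1% lower) as dashed lines. Cholesterol biosynthesis is at 88% higher and 0 lower, and squamous and basal lineage at the bottom has 69.2% lower.

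Some changes ran along whole stretches of chromosomes. In windows of 10 Mb with at least 15 tested genes, chosen after the values were seen, 27 of 276 windows had an absolute median of 0.35 or more. On chromosome 12 from 40 to 140 Mb, 361 of 601 genes rose and 29 fell, with a median of 0.41, while the first 40 Mb had a median of -0.09. On chromosome 13 from 20 to 60 Mb, 98 of 154 rose and 2 fell (median 0.51). On chromosome 3, 121 of 170 genes of the first 40 Mb fell and 9 rose (-0.52), and 37 of 61 of the last 10 Mb fell (-0.42). On chromosome 20, 108 of 149 genes of the first 30 Mb fell and 8 rose (-0.55), while the rest of the chromosome had a median of 0.05.

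These shifts were alike in all 3 S100A9-inh libraries. On the chromosome 12 stretch the median ratio to the Tr-BrM mean was 0.354, 0.36 and 0.348, and 0.456 to 0.487 in the BrM controls. On the short arm of chromosome 20 it was -0.534, -0.575 and -0.592 under S100A9-inh but only -0.127 to -0.089 in the BrM controls, so that stretch was lower than in both control groups, as was the end of chromosome 3. In H1650 the medians of all these stretches lay between -0.074 and 0.019. Copies of DNA were not analysed here, and their part in these shifts was not tested. Outside the 27 windows, 3713 of 14804 genes rose (25.1%) and 3826 fell (25.8%). Of the HOX genes, 12 of 20 tested rose and 0 fell, but 13 of the 20 lay in such windows, and of the other 7 genes 5 rose.

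**Figure D5:**
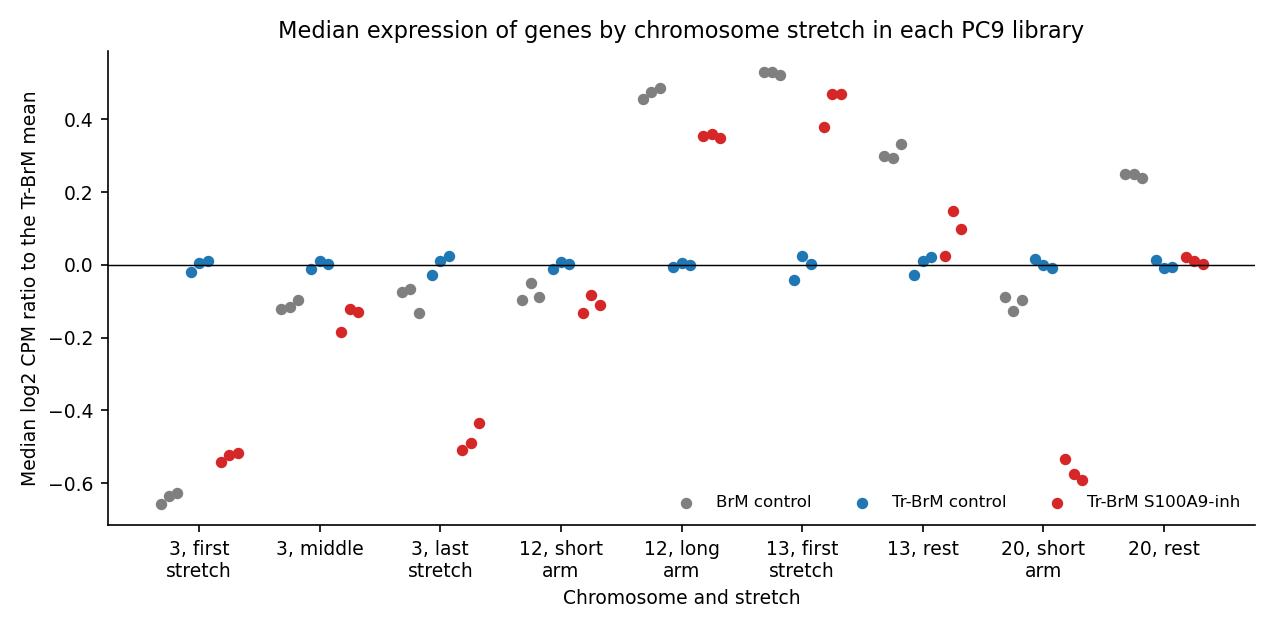
Median over genes of the log2 ratio of CPM to the Tr-BrM control mean, in each PC9 library (points), for stretches of chromosomes 3, 12, 13 and 20. The S100A9-inh libraries lie at 0.348 to 0.36 on the long arm of chromosome 12 and at -0.592 to -0.534 on the short arm of chromosome 20, where the BrM controls lie at -0.127 to -0.089.

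Some genes under S100A9-inh lay outside both control groups by at least 1 on the log2 scale, a choice made after the values were seen. CALML5, a calmodulin-like protein of keratinocytes, measured 9.97, 9.18 and 12.1 CPM where the Tr-BrM controls had 0.54 ± 0.108 and the BrM controls 0.354 ± 0.13 CPM (SD, n = 3), a rise of 4.25 ± 0.217. EFHD1, a mitochondrial calcium sensor, measured 89.9, 81.4 and 81.2 CPM against means of 14.5 and 18.9 CPM. MORN3 was at 17.6, and 1.73 and 2.98 CPM in the Tr-BrM and BrM controls, and the stress cytokine GDF15 at 13.8, 5.76 and 4.97 CPM. AKR1C2, NDRG1 and MUC1, described above, were also among these genes.

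Other genes lay below both control groups in the same way. Osteopontin (SPP1), a secreted phosphoprotein, measured 36, 34.3 and 33.7 CPM against 167, 161 and 161 CPM in the Tr-BrM and 156, 163 and 157 CPM in the BrM controls, and fell by 2.23 ± 0.0477 (edgeR, adjusted p = 4.31e-26). OLFML3, a secreted olfactomedin protein, fell by 2.05 from 662 to 159 CPM, with 542 CPM in the BrM controls. AFAP1-AS1, whose reads cannot be told apart from those of AFAP1 without strand, measured 16.4, 16.6 and 16.9 CPM against 73.5, 75.1 and 77.4 CPM. The glutathione transferase GSTM1 fell by 2.12 to 8.71, 7.19 and 8.43 CPM, and EPHA4 and SERPINB5 were likewise lower than in both groups.

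The same contrast in H1650 showed a different response. Of 17937 genes tested there, 29.2% were called (15.4% higher, 13.8% lower), and the change differed between the lines for 7704 of 19076 genes (40.4%) in an interaction test within 1 edgeR model of all 18 libraries. Among 14888 genes tested in both lines, 4055 rose and 4029 fell in PC9, and 2491 rose and 2196 fell in H1650. Of these, 658 rose in both, which is 16.2% of the PC9 and 26.4% of the H1650 rises. A further 494 fell in both (12.3% and 22.5%). Neither overlap was larger than the shares of all 14888 genes would give. Opposite calls were more numerous, with 905 genes higher in PC9 and lower in H1650 and 1027 the reverse. Across these genes the log2 changes had a Pearson r of -0.0718 and a Spearman rho of -0.123, a description, as genes are not independent replicates.

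S100A9 and S100A8 fell in both lines but further in PC9. In H1650 they changed by -1.67 ± 0.0512 and -1.36 ± 0.0503, and the differences between the lines were -2.81 ± 0.0762 and -3.62 ± 0.158 (edgeR interaction, adjusted p = 1.04e-28 for S100A9). Rises shared by the lines began with TNC (2.44 in PC9 and 1.16 less in H1650), the kinase NUAK1 (1.02 and 0.95), LOXL2 (1.37 and 0.90) and AXL (1.60 and 0.90). The cytokine IL11, the ligand WNT5B, LAMA3 and the integrin ITGB6 followed. Shared falls, besides the calprotectin genes, were led by the glycine decarboxylase GLDC (-1.49 and -1.21), KRT13 (-1.67 and -1.14), SPP1 (-2.23 and -1.13) and WNT6 (-2.29 and -1.07). For NUAK1 the interaction did not pass (0.07 ± 0.139, adjusted p = 0.737, edgeR).

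The immune lists differed between the lines. Of 31 interferon genes tested in H1650, 0 rose and 24 fell, with a median of -0.32, and the difference between the lines passed for 28 of 32 genes. BST2 changed by -0.30 ± 0.0316 in H1650, where it stood at 404 CPM in the Tr-BrM control, and by 3.79 in PC9, where it stood at 2.85 CPM. Of 18 MHC genes tested in H1650, 10 fell and 2 rose, and of 23 NF-kappaB targets 17 rose and 0 fell. Among single genes, KRT17 fell in PC9 and rose by 0.91 in H1650 (difference of -4.52 ± 0.0907). SAA1 rose by 3.52 in H1650, at low levels, from 0.26, 0 and 0.194 CPM to 1.36, 1.65 and 1.84 CPM. THBS1, CCN1, F3, KLK5 and KRT6A fell in PC9 and rose in H1650. Mitosis genes were lower in both lines, with 32 fallen and 0 risen in H1650, whereas 11 of 24 cholesterol genes rose and 3 fell in H1650, with a median of 0.10 against 0.83 in PC9.

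Many, but not all, defining markers of other cell types were at or near 0 in the compared libraries. The astrocyte genes GFAP, AQP4 and S100B stood at 0.0819, 0 and 0 CPM under S100A9-inh and at 0.151, 0 and 0 CPM in the Tr-BrM control. The summed level of 12 astrocyte markers was 140 to 141 CPM under S100A9-inh and 264 to 278 CPM in the Tr-BrM controls, and SLC1A3, FGFR3 and SOX9, which epithelial cells also express, made up nearly all of it. The summed level of 17 microglia and myeloid markers was 21.7 to 26.2 and 15.6 to 16.8 CPM, mostly from CSF1R (16.8 and 7.51 CPM), with C1QA, C1QB, C1QC and TYROBP at 0. PTPRC, the pan-leukocyte gene, stood at 0.128 and 0.402 CPM. The 9 oligodendrocyte markers summed to 155 to 158 CPM under S100A9-inh and 151 to 162 CPM in the control, nearly all from CNP (97.3 and 87.3 CPM) and MBP (57.3 and 64.4 CPM), with OLIG2 at 0. The 11 endothelial markers summed to 63.8 to 70.2 and 84.9 to 86.2 CPM, mostly from EGFL7 (38 and 40.8 CPM) and CDH5 (21.7 and 31.7 CPM), with ERG and PLVAP at 0. Fibroblast and pericyte markers summed to 19.4 to 22 and 14.8 to 17.7 CPM, mostly COL1A1, neuron markers to 20.3 to 24.5 and 26.2 to 27.3 CPM, mostly MAP2, and lymphocyte markers to 1.88 to 2.47 and 1.67 to 1.94 CPM. The part of such cells in the results was not tested.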

How the data were processed

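Poly-A RNA of PC9 and H1650 derivatives was sequenced, 18 libraries in 6 groups of 3. Raw counts per gene were deposited by the authors, who used STAR, R 4.0.1, DESeq2 1.28.1 and GRCh38, per the submitters' processing notes; the sources used here give neither annotation release nor strand setting. The 9 PC9 libraries (18.17 to 21.75 M counts) were fitted together with edgeR 4.0.16 (R 4.3.3): genes were filtered by group with filterByExpr (minimum count 10), scaled with TMM and tested with the quasi-likelihood test, with Benjamini-Hochberg adjustment over all genes and a threshold of 0.05. The difference between lines was an interaction contrast over all 18 libraries, with no term for batch, as no batch is labelled. The code was tested on simulated data, where the share of false calls came out somewhat above the threshold. DESeq2 1.42.0, other scalings and filters, glmTreat and leaving out libraries were tried as alternatives.

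Members and the 51 gene lists were chosen with earlier results of these data known. Genes named are S100A9, S100A8, ALDH1A1, ALDH1A3, EGFR, the 12 largest rises and 12 largest falls at 5 CPM or more, in each list the 4 tested members (or fewer) of smallest p, the 8 largest shared rises and falls in both lines, and the 10 smallest interaction p-values. The text prints a part of these. Other names, including list members beyond those 4, genes with 3 or fewer counts in a group and genes beyond both control groups, were chosen after their values were seen. Promoter sequences and start sites are from RefSeq (GRCh38.p14). Gene coordinates are GRCh38. Some list members are counted in their lists but not reported singly here.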

Additional observations from a re-analysis of the deposited data

Results flagged for a closer look

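The response to S100A9-inh differed between PC9 and H1650 for 7704 of 19076 genes in the interaction test, the reason each gene below is listed; values are the log2 change in PC9 minus that in H1650, with edgeR adjusted p-values under the 0.05 threshold. Both calprotectin genes fell further in PC9, by -2.81 for S100A9 and -3.62 for S100A8. The retinal dehydrogenases ALDH1A1 and ALDH1A3 differed by -2.73 and -1.21, and EGFR by -0.59. Genes that rose in both lines but by unequal amounts were TNC (1.16), LOXL2 (0.47), AXL (0.71) and LAMA3 (0.59), which rose more in PC9, and ITGB6 (-0.63), which rose more in H1650. Genes that fell in both lines, further in PC9, were GLDC (-0.28), KRT13 (-0.54), SPP1 (-1.10) and WNT6 (-1.21).

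The genes with the smallest p in this test, at 5 CPM or more in both lines, included KRT17 (-4.52), EPB41L2 (7.16), BST2 (4.09), THBS1 (-1.96), KLK5 (-2.41), KRT6A (-2.99), CCN1 (-1.92), EFHD1 (2.72) and F3 (-1.93). Of these, KRT17, THBS1, KLK5, KRT6A, CCN1 and F3 fell in PC9 and rose in H1650. The lines were sequenced as separate tables, and line and any unlabelled batch cannot be told apart.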

How the results depend on the processing

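No gene called in this comparison was called in the opposite direction under any alternative run, though PCGF1, PLXNB3, C19orf47, CACTIN and TRIM2, whose changes were small, had values of either sign. Against a change of 1.2-fold (glmTreat), 2230 genes were higher and 1957 lower, and many list counts fell with them. With a minimum count of 50, 393 genes were higher and 253 lower by at least 1, as fewer genes were tested. Leaving out each library in turn gave 3791 to 4247 higher genes, 3844 to 4233 lower genes, 777 to 830 higher and 471 to 513 lower by at least 1, 7258 to 7572 genes that differed between the lines, and an S100A9 change of -4.54 to -4.43. DESeq2 gave 3626 higher and 3737 lower, with 85.6% of the main calls kept the same way and 0 opposite. Library size alone gave 4625 higher and 3861 lower, with a median over all genes of 0.0257. No paired analysis was possible because the labels carry no replicate numbers shared between groups; numbers were given in accession order. Depth limits the genes of low level, whose intervals are wide.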
